A study of Mus musculus with 13 samples.

Results

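White adipose tissue of vehicle-injected Fv2E-PERK mice was compared with white adipose tissue of untreated wild-type mice. The comparison holds 6 of the 13 arrays of the series, 3 in each group, chosen by genotype, tissue and treatment in the labels. All mice were male C57BL/6J. The transgenic group carried Fv2E-PERK, which joins the PERK kinase to a dimerization domain, and received an intraperitoneal injection of vehicle (4% ethanol, 10% PEG-400 and 1.75% Tween-20 in water) without the ligand AP20187, with collection 12 h later. The wild-type group carried no transgene and was not injected, and its collection time and the time of day of either group are not in the labels. Genotype and injection therefore changed together, and their effects cannot be told apart. The series names the construct mAP::Fv2E-PERK without saying what mAP is, so the promoter and the cell type that drive it are not known here. The treatment protocol speaks of muscles, although every sample is labelled white or brown fat. The labels do not say whether arrays of a group came from separate mice, and p-values measure the spread between arrays.

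PERK is a kinase of the endoplasmic reticulum membrane that dimerizes when unfolded proteins accumulate, phosphorylates the initiation factor eIF2alpha, slows protein synthesis and favours translation of ATF4. Fv2E-PERK is built so that a bivalent ligand, and not unfolded protein, brings the kinase domains together, and without ligand it serves as the unstimulated control of such experiments. Interferons, which appear below because their target genes lay higher on the vehicle arrays, act through receptor-bound kinases and transcription factors such as STAT2 and IRF9 on a shared DNA element in the promoters of antiviral genes.

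Vehicle replicate 3 is an array with contradictory labels: its title, tissue and description say brown fat and its source name says white fat. Its levels were those of white fat. Ucp1, the uncoupling protein that defines brown fat, read -4.57 on that array, between -7.23 and -5.26 on the other 5 white fat arrays of the comparison, and between 9.87 and 10.63 on the 4 brown fat arrays. Levels are on a log2 scale, with the 75th percentile of each array's processed signal set to 0. Over all features vehicle 3 correlated with vehicle 2 at r = 0.991, with wild type 1 at 0.989 and with vehicle 1 at 0.986. Vehicle 1 correlated with wild type 1 and 2, on its own slide, at 0.987 each and with vehicle 2 at 0.980. These correlations therefore do not separate the groups, and brown fat arrays were not among them. The array is kept in the vehicle group, and values without it are given where they matter. Adipoq, the adipocyte hormone adiponectin, lay between 8.62 and 9.15 on the 6 arrays, and Lep, the gene of leptin, between 3.52 and 4.4. Eif2ak3, the endogenous gene of PERK, read 0.93, 1.16 and 1.04 on vehicle arrays 1 to 3 and 0.89, 1.0 and 1.17 on wild-type arrays 1 to 3, a difference of 0.02 (SE 0.13). The position of this probe relative to the kinase domain was not examined, so the value is no check of the transgene.

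Between 57.9% and 64.0% of spots were well above background on the 6 arrays. Some arrays stood apart for markers of other tissues or cell types, and whether other tissue was carried over was not tested. Wild type 3 had a mean of 4.51 over 12 smooth muscle and pericyte markers, against 2.18 to 2.63 on the other 5 arrays, and Defb42, an epididymal defensin, read 5.87 on it against -4.52 to -1.78 elsewhere. Over 13 liver markers the mean was 2.99 on vehicle 2, 1.18 on vehicle 3, -0.76 on vehicle 1, and 0.12, -1.13 and -1.72 on wild type 1 to 3. Vehicle 1 stood apart for 6 tested testis markers at -0.31, against -3.15 to -2.23. Wild type 1 to 3 and vehicle 1 shared a slide, and vehicle 2 and 3 lay on another, so a value within slide 1 sets vehicle 1 alone against the 3 wild-type arrays.

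**Figure D1:**
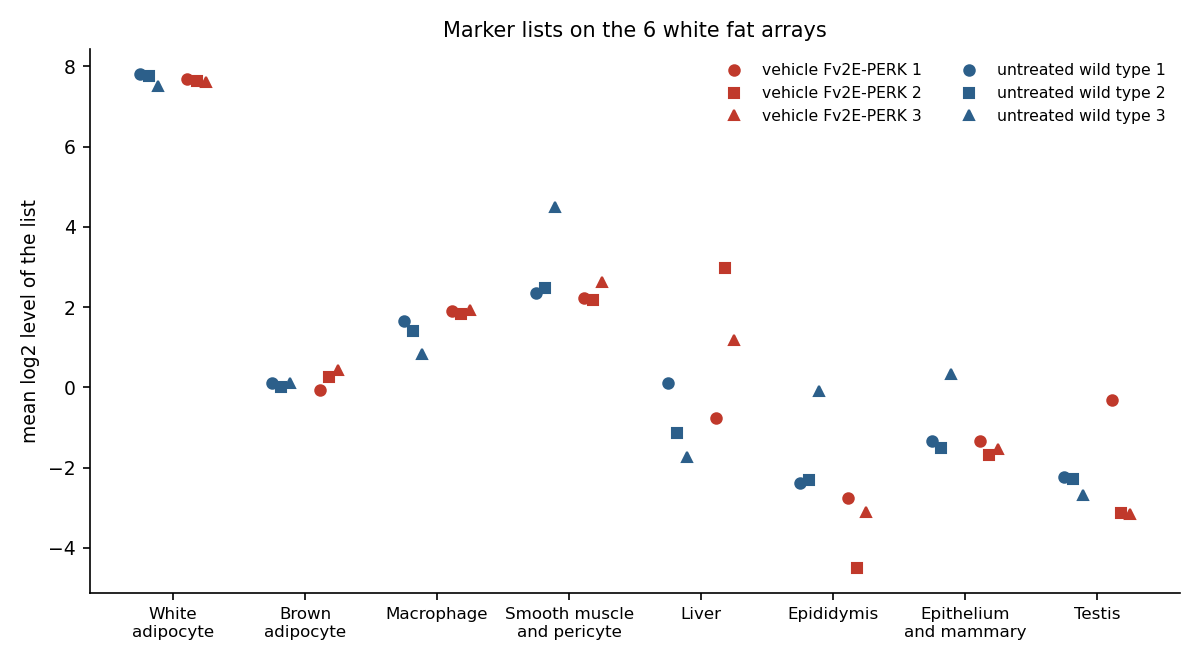
Mean log2 level of the tested members of 8 marker lists (horizontal axis) on each of the 6 white fat arrays, with vehicle Fv2E-PERK in red and untreated wild type in blue and the replicate number as the symbol. White adipocyte markers lie between 7.52 and 7.81 on all arrays, while wild type 3 stands apart for smooth muscle and epididymal markers and vehicle 2 for liver markers.

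Few single genes separated the groups beyond the spread between arrays. Of 26925 features tested, 3 passed limma with Benjamini-Hochberg adjustment at 0.05 (0.0111%), of which 1 rose (0.00371%) and 2 fell (0.00743%) in the transgenic mice. With normexp correction and quantile scaling the split was 2 higher and 1 lower. An unadjusted p under 0.05 was reached by 4435 features (16.5%), 9.35% higher and 7.12% lower. The lowest vehicle array lay above the highest wild-type array for 14.3% of features, and the highest vehicle array below the lowest wild-type array for 11.1%. Features that met this and differed at least 2-fold made up 1.13% (higher) and 1.42% (lower). The median difference of all features was 0.02, and 53.3% were positive.

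Gprc5b was the gene that rose. It lies on chromosome 7 and encodes a retinoic acid-inducible orphan G protein-coupled receptor found in lipid rafts. Its level was 4.98, 4.98 and 4.91 on vehicle 1 to 3 and 3.09, 3.16 and 3.08 on wild type 1 to 3. The groups lay far apart and the arrays of each group close together. The difference of 1.85 log2 units (SE 0.10) was 3.60-fold, with a limma adjusted p of 0.0104. Within slide 1 it was 1.87. A second, dimmer probe of Gprc5b differed by 0.88, and with the mean of both probes the gene was not called. The call was also lost when vehicle 2, vehicle 3 or any wild-type array was left out, with all 13 arrays in 1 model, and without a filter on dim probes, and the adjusted p over all alternatives ranged from 6.09e-04 to 0.691. The difference was positive under all 19 of them, between 1.36 and 1.87.

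The next gene but one to Gprc5b in RefSeq order, Knop1, which encodes a lysine-rich nucleolar protein, had the smallest limma p among tested neighbours. Knop1 read 2.98, 3.24 and 3.40 on vehicle 1 to 3 and 2.08, 2.09 and 1.96 on wild type 1 to 3. All vehicle arrays lay above all wild-type arrays, by 1.16 log2 units (2.24-fold, SE 0.14, limma adjusted p = 0.118). With the mean of its probes, Knop1 passed at 1.36 (limma adjusted p = 0.0466). Iqck, which lies between the pair, pointed the other way at -0.68 (SE 0.27, limma adjusted p = 0.290), with all vehicle arrays lower. Vps35l, a subunit of the retriever complex that recycles membrane proteins, differed by 0.35 (SE 0.13, limma adjusted p = 0.282). On the other side of Gprc5b, Acsm5 differed by 0.61 (SE 0.22) with all vehicle arrays above. Acsm1, on that side too, had the larger difference of 1.88 (SE 0.89), but its groups overlapped. Of the 16 nearest genes, 8 on each side, 11 were tested and 0 passed limma, and 3 had all vehicle arrays above and 1 all vehicle arrays below, against 14.3% and 11.1% of all features. Knop1 and its neighbours were singled out after the Gprc5b value was seen.

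Gprc5b was also high on the 7 transgenic arrays outside the comparison, those of white fat with AP20187 and of brown fat. It read 4.04, 5.40 and 5.10 in white fat after AP20187, 5.86 and 6.25 in brown fat with vehicle, and 5.87 and 5.66 in brown fat with AP20187. All 7 lay above the highest wild-type array at 3.16. No wild-type brown fat was measured, so the brown fat levels have no control of their own.

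Both features that fell were unnamed probes, and both belong to a single interval of 22983 bases, chr5:23195569-23218551 in the build mm9 of the array files. The files name no gene there, and an annotation of that build was not used here. Probe A_30_P01019583 read -3.36, -3.34 and -3.57 on vehicle 1 to 3 and -0.47, -0.07 and -0.15 on wild type 1 to 3. It fell by 3.19 log2 units (9.15-fold lower, SE 0.14, limma adjusted p = 0.00893). Probe A_30_P01020907 read -4.79, -4.77 and -5.16 on the vehicle arrays and -2.48, -2.17 and -2.06 on the wild-type arrays. It was not well above background on any vehicle array, so the difference is a bound. With the scaling and background correction used, it was at least 5.99-fold lower (limma adjusted p = 0.0234). Under the alternatives its difference ran from -2.79 to -0.81 log2 units. For such bounds, here and below, the dim group is given on each array the lowest signal that any probe well above background reached, or the probe's own signal if that was higher.

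The array carries 7 probes for that interval, and they differed among themselves. Another of them, A_30_P01026028, read -4.57, -3.59 and -4.51 on the vehicle arrays and -1.61, -1.11 and -1.34 on the wild-type arrays, a difference of -2.87 that did not pass. The other 4 overlapped between the groups, with differences from -0.53 to 0.74. On the 7 other transgenic arrays A_30_P01019583 lay between -5.91 and -3.14 and A_30_P01020907 between -6.05 and -4.21, all below the lowest wild-type array. The former was well above background on 2 of these arrays and the latter on 0, so most of these levels are background readings. The call of A_30_P01019583 was lost without vehicle 2, vehicle 3, wild type 2 or wild type 3, and that of A_30_P01020907 without any array except vehicle 1.

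**Figure D2:**
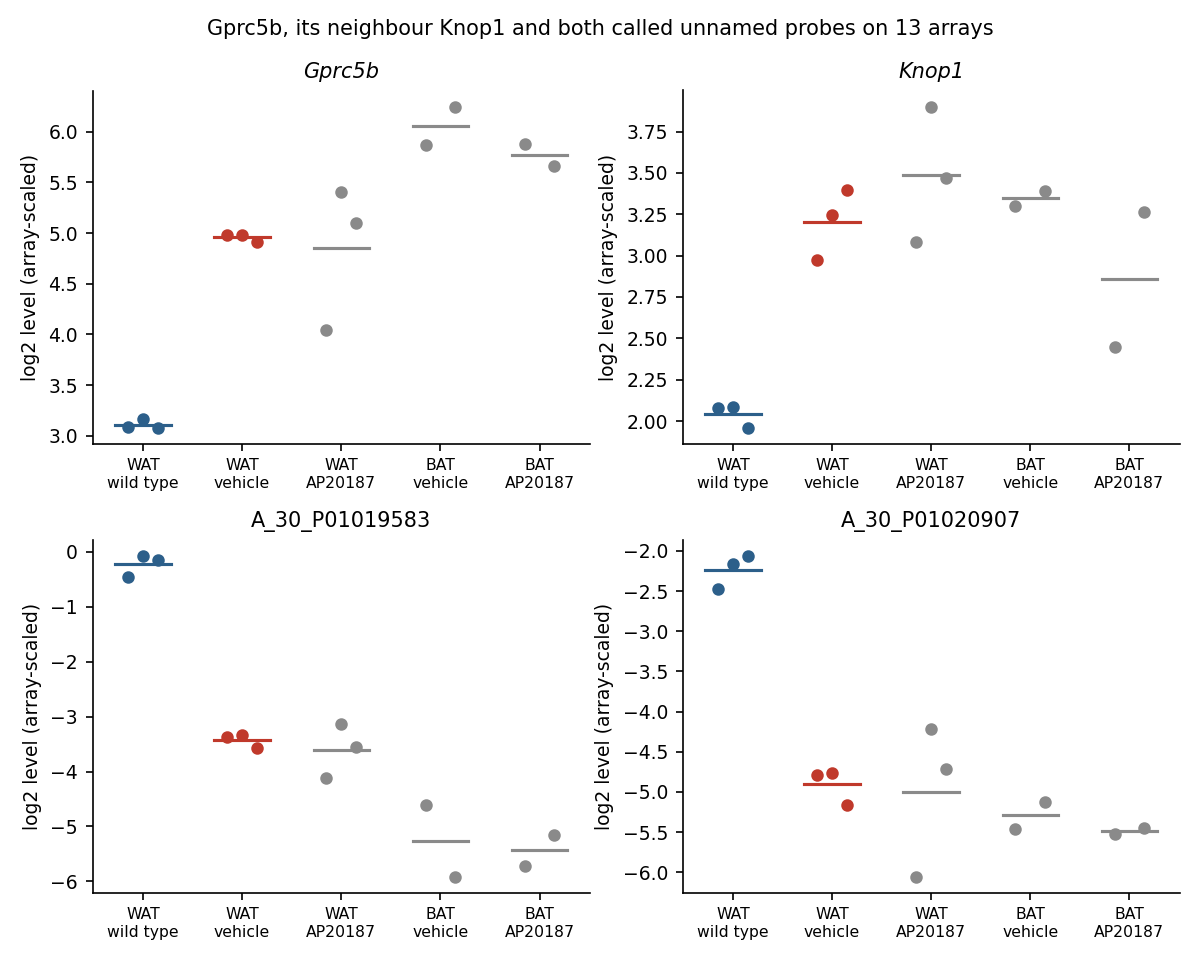
Array-scaled log2 level of Gprc5b, Knop1 and both unnamed probes that fell (4 panels, each with its own vertical scale) on all 13 arrays, 1 point an array and a bar at the group mean; blue is untreated wild-type white fat, red vehicle Fv2E-PERK white fat and grey the other transgenic groups (WAT, white fat; BAT, brown fat). The 3 wild-type arrays stand apart from every transgenic array in each panel, for Gprc5b at 3.08 to 3.16 against 4.04 to 6.25.

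Interferon-stimulated genes held the largest share of genes without overlap between the groups among the 46 lists. Of 27 listed genes 25 were tested, 24 had a positive difference, and 22 had every vehicle array above every wild-type array, against 14.3% of all features. None of the 25 passed limma singly, and 23 had an unadjusted p under 0.05, all higher, against 9.35% of all features. The median of the list was 0.94 log2 units, against 0.02 for all features. The mean level of the list was 1.90, 1.69 and 1.5 on vehicle 1 to 3 and 0.77, 0.77 and 0.44 on wild type 1 to 3. Every vehicle array therefore lay above every wild-type array, with vehicle 3 lowest of its group and wild type 3 lowest of its own.

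The 2',5'-oligoadenylate synthetases sense double-stranded RNA and activate the ribonuclease RNase L. Oas1a read 3.22, 2.91 and 2.77 on vehicle 1 to 3 and 1.48, 1.37 and 1.0 on wild type 1 to 3. The difference was 1.68 (3.21-fold, SE 0.18, limma adjusted p = 0.0957). Oas2 read 2.15, 2.15 and 1.54 on the vehicle arrays and 0.24, 0.35 and -0.03 on the wild-type arrays, a difference of 1.76 (SE 0.21). Oas1f, a close relative of Oas1a that was not on the list, read 1.88, 1.71 and 1.59 on the vehicle arrays and 0.08, 0.09 and -0.36 on the wild-type arrays. It differed by 1.79 (SE 0.16, limma adjusted p = 0.0891), and by 1.94 within slide 1. Oas1f passed with normexp and quantile scaling or a trended prior (limma adjusted p = 0.0275 and 0.0314). Over all alternatives its limma adjusted p ran from 0.0275 to 0.691. The Oas1 genes are related copies, and whether a probe takes signal from several of them was not examined. Oasl1 and Oasl2, the oligoadenylate synthetase-like genes, differed by 1.80 and 1.34.

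Among genes that restrain or carry out the interferon response, all vehicle arrays again lay above all wild-type arrays. Ifi44, an interferon-induced cytoplasmic protein, read -0.15, -0.58 and -0.65 on vehicle 1 to 3 and -2.05, -1.90 and -2.08 on wild type 1 to 3, a difference of 1.55 (2.94-fold, SE 0.16, limma adjusted p = 0.0891). Usp18, the protease that removes ISG15 and dampens interferon receptor signalling, read 1.26, 1.15 and 0.61 against -0.51, -0.71 and -0.52, a difference of 1.59 (SE 0.19). For both genes the lowest vehicle array exceeded the highest wild-type array by more than 1 log2 unit. Isg15, the ubiquitin-like modifier itself, read 4.25, 4.02 and 3.62 against 2.79, 2.36 and 2.31. Its difference was 1.47 (SE 0.21). Ifit1 and Ifit3, which bind foreign RNA and block its translation, differed by 1.80 and 1.63. Rsad2, the antiviral enzyme viperin, differed by 1.24 and Bst2, the tether that holds budding virus at the cell surface, by 0.91.

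The transcription factors of the pathway differed less. Stat2 read 2.51, 2.53 and 2.34 on the vehicle arrays and 1.75, 1.79 and 1.43 on the wild-type arrays, a difference of 0.80 (SE 0.14). Irf9, its partner, differed by 0.63 and Irf7, which amplifies the response, by 0.85, both with all vehicle arrays higher. The RNA sensors Ifih1 and Ddx58, the genes of MDA5 and RIG-I, differed by 0.52 and 0.51 without overlap. The members that interferon gamma induces most were mixed: Cxcl9 differed by -0.02, Gbp2 by 0.39 and Gbp3 by 1.06.

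With slide as a fixed block, the median of the interferon list within slide 1 was 1.18. That fit rests on vehicle 1 alone, and it also picks up what is peculiar to that array. The 6 tested testis markers, for which vehicle 1 stood apart, had a median of 1.97 within slide 1. Without vehicle 3 the median of the interferon list was 1.09 and 22 genes lay above, against 18.8% of all features. Without both vehicle 3 and wild type 3 it was 0.86, again with 22, against 22.0%. White fat after AP20187, on the slide of vehicle 2 and 3, had list means of 0.69, 1.51 and 1.39. Macrophage markers lay higher on the same arrays. The mean of 16 macrophage markers was 1.90, 1.83 and 1.94 on vehicle 1 to 3 and 1.65, 1.40 and 0.84 on wild type 1 to 3, and their part in the interferon difference was not tested. In bulk tissue, more cells of a type and more RNA per cell cannot be told apart.

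**Figure D3:**
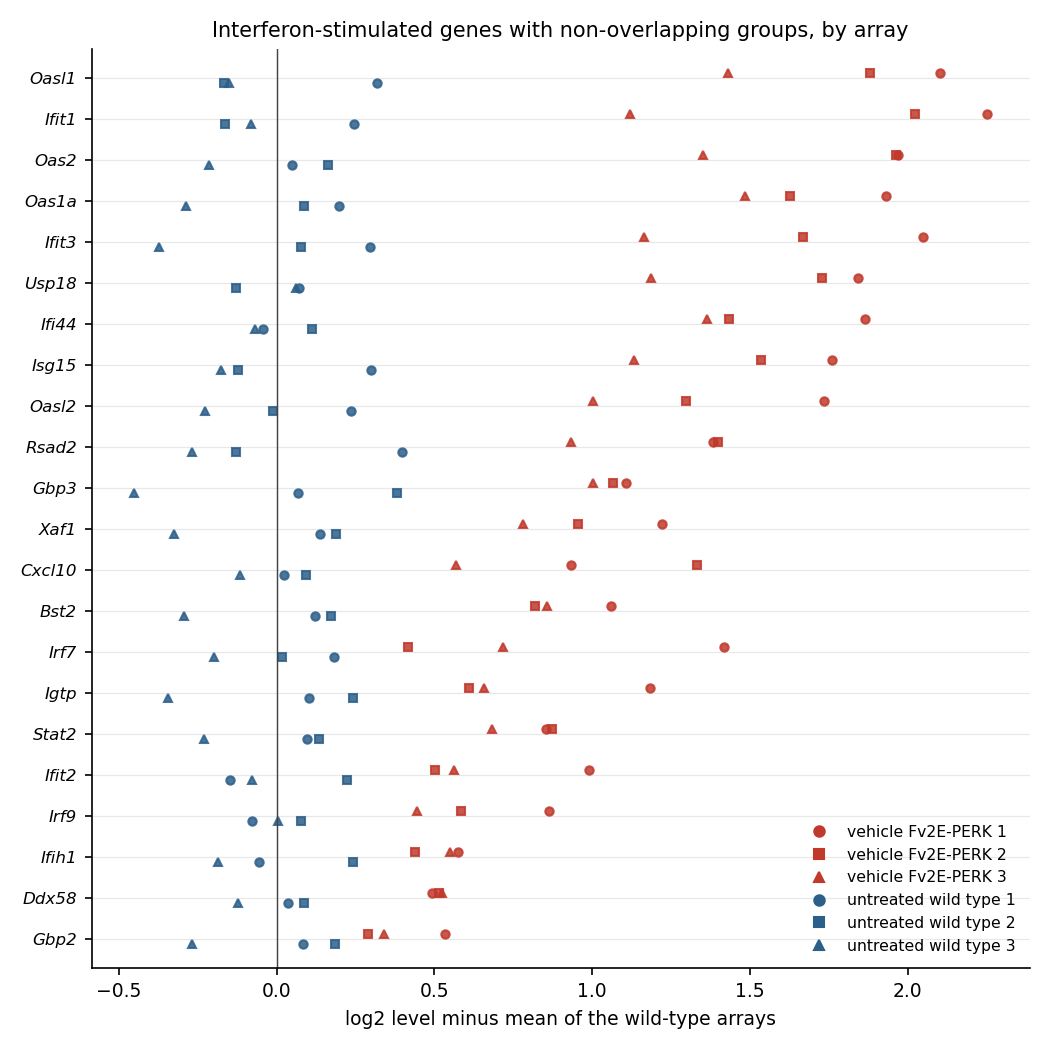
Log2 level of the 22 of 25 tested interferon-stimulated genes whose groups did not overlap (rows) minus the mean of its 3 wild-type arrays, 1 symbol per array, vehicle Fv2E-PERK in red and untreated wild type in blue. All red symbols lie to the right of all blue ones in each row because the rows were chosen so, and the distances show the size of the difference, up to 1.80 for Oasl1.

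The promoters of these genes were searched for the core of the element that complexes of STAT2 and IRF9 bind. The motif, GAAA followed by any 2 bases and GAAA again, was sought on both strands, overlapping matches included, in the 250 bases before the start that RefSeq gives in GRCm38.p6. Of 21 tested interferon-stimulated genes with a promoter entry, 11 held it, against 3.24% of 11711 tested genes and 2.98% of 32851 promoters of the table. The list was made of known interferon-stimulated genes, so this share describes the list and not the difference between the groups. A match is a description of the sequence and not a measured binding site. The stretches below, of 120 bases each, read 5' to 3' on the strand of the gene, and are shown because these 4 genes had some of the largest differences of the list and hold the motif more than once. Capitals mark the bases that match the motif, which reads TTTC, any 2 bases and TTTC where it lies on the opposite strand.
Oas1a, chr5:120907526-120907645, minus strand: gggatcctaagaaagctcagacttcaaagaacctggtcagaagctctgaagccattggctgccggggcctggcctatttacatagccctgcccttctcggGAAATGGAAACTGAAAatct
Isg15, chr4:156200826-156200945, minus strand: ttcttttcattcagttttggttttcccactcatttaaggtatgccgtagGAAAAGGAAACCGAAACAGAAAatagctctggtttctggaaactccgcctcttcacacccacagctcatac
Ifit3, chr19:34583335-34583454, plus strand: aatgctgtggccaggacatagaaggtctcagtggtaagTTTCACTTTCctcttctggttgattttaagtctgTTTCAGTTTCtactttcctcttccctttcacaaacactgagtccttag
Ifit1, chr19:34640739-34640858, plus strand: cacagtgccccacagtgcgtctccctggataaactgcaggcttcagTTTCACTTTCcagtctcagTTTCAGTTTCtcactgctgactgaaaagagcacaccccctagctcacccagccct
In Oas1a the pair of overlapping matches starts 20 and 14 bases before the gene's start, on the strand of the gene. In Isg15, 3 overlapping matches on that strand start between 78 and 66 bases before it. The matches of Ifit3 and Ifit1 lie on the opposite strand, and both genes hold 2 separate ones.

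Genes of antigen presentation, which interferons also induce, differed less. Of 18 tested, 17 had a positive difference, 8 had all vehicle arrays above (14.3% of all features), 0 passed limma, and the median was 0.38. Tap2, a subunit of the peptide transporter, read 4.32, 4.51 and 4.63 on vehicle 1 to 3 and 4.07, 4.12 and 3.71 on wild type 1 to 3, a difference of 0.52 (SE 0.16, limma adjusted p = 0.236). H2-K1, a class I heavy chain, differed by 0.40 and Psmb10, an immunoproteasome subunit, by 0.43. Without vehicle 3 and wild type 3 the median of the list was 0.15 and without wild type 3 alone 0.22, while 13 genes lay above without vehicle 1 and 14 without wild type 1, against 26.2% and 19.8% of all features.

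Genes of the acute phase and of innate defence included several with large differences. Of 20 tested, 18 were positive, 9 had all vehicle arrays above (14.3% of all features) and 1 all below (11.1%), 0 passed limma and the median was 0.59, or 0.29 without both vehicle 3 and wild type 3. Saa3, the serum amyloid A that adipose tissue and macrophages make, read 3.09, 2.23 and 3.40 on vehicle 1 to 3 and -0.54, 0.52 and -0.13 on wild type 1 to 3. The difference was 2.96 (7.78-fold, SE 0.38, limma adjusted p = 0.122). S100a9, a calcium-binding protein of neutrophils and monocytes, read 1.43, 1.47 and 0.76 against -1.78, -1.61 and -1.02, a difference of 2.68 (6.43-fold, SE 0.28, limma adjusted p = 0.0891). Its usual partner S100a8 differed by 0.34 and overlapped between the groups. Chil1, a chitinase-like secreted protein, read -2.32, -1.94 and -1.14 on the vehicle arrays and -4.05, -4.83 and -5.23 on the wild-type arrays, where only 1 array was well above background. Its difference of 2.90 therefore rests on dim values, and was 1.08 with normexp and quantile scaling.

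Complement genes of the same list differed by smaller steps: C4b by 1.08 (SE 0.26), C3 by 0.59 and Cfb by 0.66, each with all vehicle arrays above. Lcn2, the siderophore-binding lipocalin, went the other way, at 4.0, 2.36 and 3.54 on vehicle 1 to 3 against 4.02, 4.23 and 4.36 on wild type 1 to 3, a difference of -0.90 (SE 0.41) that was -0.20 within slide 1. Haptoglobin (Hp) differed by 0.14 and overlapped. Saa1 and Saa2, which the liver also makes and which are near-identical, differed by 1.33 and 2.44, and within slide 1 by 0.64 and 0.65. Saa2 read -1.63 on vehicle 1, 1.07 on vehicle 2 and 1.03 on vehicle 3, and liver markers were lower on vehicle 1 than on vehicle 2 and 3 in the same way. Without vehicle 1, Saa2 passed limma (adjusted p = 0.0384) with a difference of 3.34. The part of liver transcripts in the Saa1 and Saa2 values was not tested.

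Macrophage markers lay higher on the vehicle arrays, 15 of 16 with a positive difference and 9 with all vehicle arrays above, against 53.3% and 14.3% of all features, with 0 past limma and a median of 0.58. Marco, a scavenger receptor, read 1.90, 1.83 and 1.54 on vehicle 1 to 3 and -0.21, 0.54 and -0.45 on wild type 1 to 3, a difference of 1.80 (3.49-fold, SE 0.27, limma adjusted p = 0.140). Fcgr1, the high-affinity receptor for immunoglobulin G, differed by 1.0, and Adgre1, a macrophage surface receptor, by 0.84. Trem2, Itgax and Gpnmb, which mark lipid-laden macrophages, differed by 0.22, 0.11 and -0.14 and overlapped. Without wild type 3 the median of the list was 0.40, and without both vehicle 3 and wild type 3 it was 0.39.

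Cytokine and chemokine genes were mixed, 15 of 21 positive, 5 with all vehicle arrays above (14.3% of all features) and 1 below (11.1%), with 0 past limma and a median of 0.22. Without vehicle 3 or without wild type 2, 9 were above, against 18.8% and 21.1% of all features, with medians of 0.15 and 0.38, and without both vehicle 3 and wild type 3 the median was 0.09. Il1b, the gene of interleukin-1 beta, read -3.21, -3.50 and -3.35 on vehicle 1 to 3. It was not well above background on any wild-type array (-5.00, -4.66 and -5.02). With the scaling and background correction used, it was at least 2.75-fold higher (limma adjusted p = 0.0891). Under the alternatives its difference ran from 0.36 to 1.68 log2 units. Ccl6 and Cxcl1, which attract monocytes and neutrophils, differed by 0.98 and 1.07, and Cx3cl1 by -0.55 with all vehicle arrays below. Tnf and Ccl5 overlapped, at 0.22 and -0.20. Neutrophil and mast cell markers had 3 of 10 with all vehicle arrays above, against 14.3% of all features, and a median of 0.16. That median was 0.27 without vehicle 2, where 5 lay above against 17.3% of all features, and 0.28 without wild type 1. T and B lymphocyte markers had 1 of 13 above and a median of -0.08, between -0.26 and 0.10 under the alternatives.

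Chaperone, translocon and degradation genes of the endoplasmic reticulum, taken as 1 list, had small differences of 1 sign. The mean level of the list was 3.55, 3.63 and 3.44 on vehicle 1 to 3 and 3.14, 3.16 and 3.42 on wild type 1 to 3. Wild type 3 thus lay close to vehicle 3. All 22 tested genes were positive, from 0.01 to 0.75, 12 had all vehicle arrays above (14.3% of all features), 0 passed limma and the median was 0.25. Hspa5, the gene of the chaperone BiP that holds PERK inactive, read 6.56, 6.89 and 6.48 on vehicle 1 to 3 and 5.87, 5.81 and 6.0 on wild type 1 to 3. The difference was 0.75 (1.69-fold, SE 0.14, limma adjusted p = 0.176). Pdia6, a disulfide isomerase, differed by 0.48, Dnajc3, the co-chaperone P58IPK that also inhibits eIF2alpha kinases, by 0.59, and Creld2 by 0.67, each without overlap. Canx and P4hb, the genes of calnexin and of a disulfide isomerase, differed by 0.04 and 0.01. Without vehicle 1 or without wild type 1, 20 and 19 of the 22 were positive, and without both vehicle 3 and wild type 3, 20 had all vehicle arrays above, against 22.0% of all features.

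Heat shock proteins had a positive difference in 11 of 13 cases, 6 with all vehicle arrays above (14.3% of all features), 0 past limma and a median of 0.36. Hsph1, a nucleotide exchange factor of the HSP70 family, read 3.80, 4.05 and 3.08 on vehicle 1 to 3 and 2.50, 2.34 and 2.79 on wild type 1 to 3, a difference of 1.1 (SE 0.27, limma adjusted p = 0.204). Dnaja1, a co-chaperone, differed by 0.61 and Hspb1, a small heat shock protein, by 0.77, both without overlap. Hspa1a, the inducible HSP70, differed by -0.11, with wild type 3 highest at 1.02. Without vehicle 2 the list's median was 0.21, and without vehicle 3 it was 0.47, with 10 genes above against 18.8% of all features.

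The genes that PERK controls through ATF4 were mixed. Of 19 tested regulators of the integrated stress response, 13 were positive, 3 had all vehicle arrays above and 3 all below, close to the 14.3% and 11.1% of all features, 0 passed limma, and the median was 0.10, with a range from -0.03 to 0.16 under the alternatives. Atf4 read 6.05, 6.06 and 6.11 on vehicle 1 to 3 and 6.21, 6.18 and 6.12 on wild type 1 to 3, a difference of -0.10 (SE 0.10). Ddit3, the gene of the factor CHOP, differed by 0.21 and Asns, asparagine synthetase, by 0.06, both with overlap. Trib3, a pseudokinase that ATF4 and CHOP induce, read 1.78, 2.07 and 2.49 against 1.71, 1.68 and 1.42, a difference of 0.51 (SE 0.20, limma adjusted p = 0.290) that was 0.32 without vehicle 3 and 0.18 within slide 1. Atf3 differed by -0.34 and Ddit4, an inhibitor of mTORC1, by -0.84 (-0.46 within slide 1), both with all vehicle arrays below.

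Lists further down that pathway were close to all features. The median was -0.08 over 21 genes of amino acid synthesis and transport and -0.04 over 20 tRNA synthetases, with 0 past limma. In each list 2 had all vehicle arrays above (14.3% of all features), and 2 and 1 had all below (11.1%). Among eIF2alpha kinases and stress sensors, 17 tested with a median of 0.05, Eif2ak2, the double-stranded RNA-dependent kinase PKR and itself an interferon target, differed by 0.71 (SE 0.25). Ern1, the gene of the sensor IRE1, differed by -0.47 and Xbp1, whose transcript IRE1 splices, by 0.20. Among 7 stress hormones, Fgf21 and Gdf15 being the classical ATF4 targets, Gdf15 differed by -0.60 with overlap. Angptl4, an inhibitor of lipoprotein lipase, read 7.64, 8.19 and 7.79 on vehicle 1 to 3 and 7.0, 6.91 and 6.68 on wild type 1 to 3, a difference of 1.01 (2.02-fold, SE 0.18, limma adjusted p = 0.168).

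**Figure D4:**
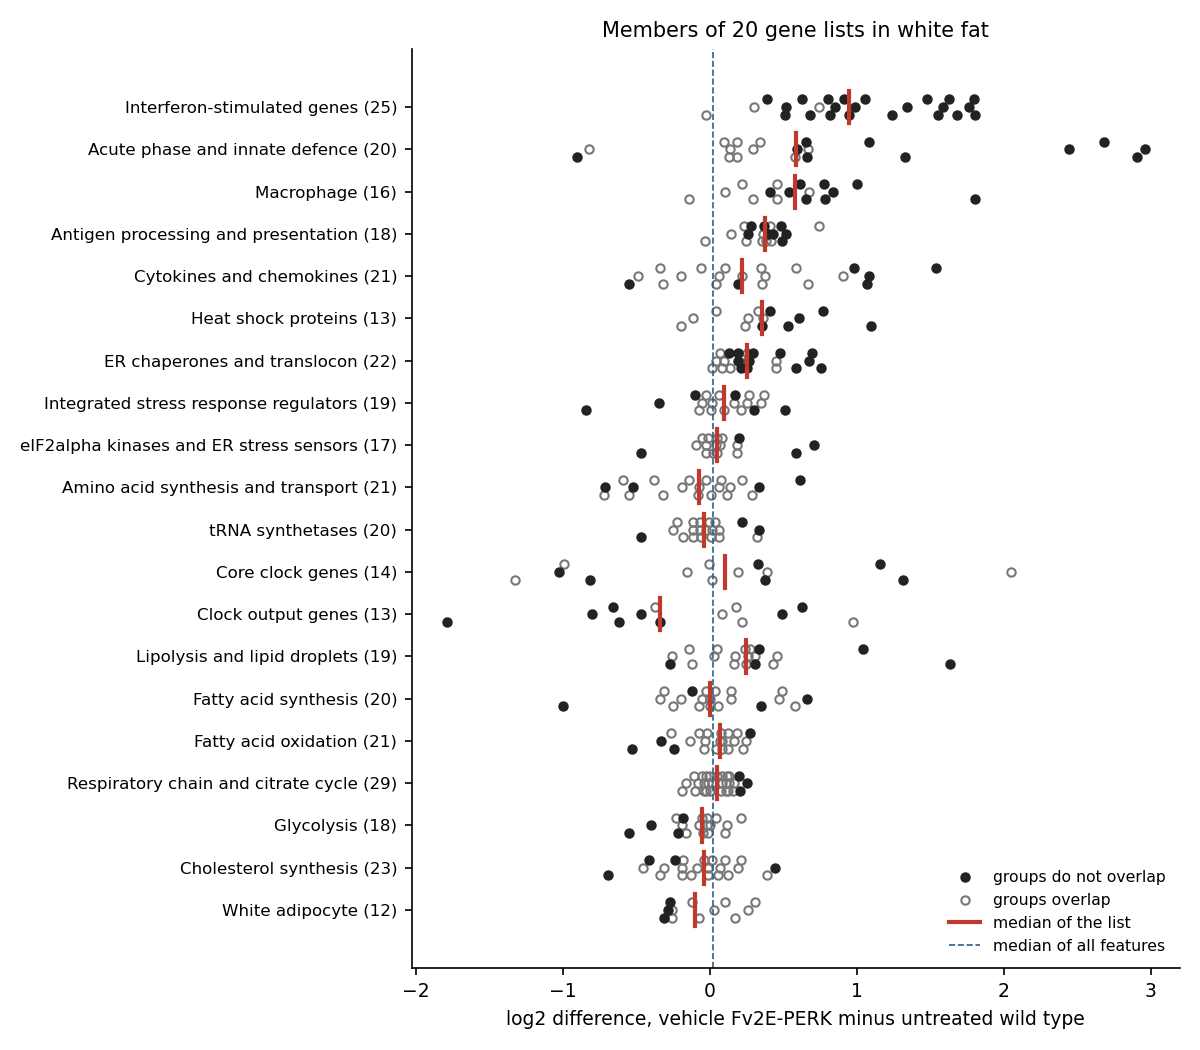
Log2 difference of each tested member, vehicle Fv2E-PERK minus untreated wild type, for 20 gene lists (rows, with the number of members tested); filled points are genes whose groups do not overlap, red bars list medians, and the dashed line the median of all features at 0.02. Of the lists drawn, the interferon list has the highest median, 0.94, while the lists of integrated stress response regulators and tRNA synthetases lie at 0.10 and -0.04.

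Genes of the circadian clock differed in both directions. CLOCK and ARNTL (BMAL1) drive transcription of Per, Cry, Dbp and Bhlhe genes, whose products repress or transmit the rhythm. Per1, a repressor, read 3.44, 3.51 and 3.32 on vehicle 1 to 3 and 4.19, 4.27 and 4.26 on wild type 1 to 3. The difference was -0.82 (SE 0.10, limma adjusted p = 0.122), with all vehicle arrays below. Per3 read -2.66, -3.21 and -3.14 against -2.33, -1.44 and -2.16, a difference of -1.02 (SE 0.27). Dbp, an output factor, read 2.0, 2.02 and 2.39 against 2.90, 4.76 and 4.12, a difference of -1.79 (SE 0.45, limma adjusted p = 0.208), and its second probe differed by -1.56. In these 3 genes wild type 1 to 3 all exceeded every vehicle array, and for Dbp wild type 1 lay nearest to them.

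Other clock genes lay higher on the vehicle arrays. Arntl read 1.79, 1.83 and 1.68 on vehicle 1 to 3 and 1.33, -0.06 and 0.09 on wild type 1 to 3, a difference of 1.32 (SE 0.36). Wild type 1 again lay nearest to the vehicle arrays. Clock differed by 0.33, and Cry1, a late repressor, by 1.16 (SE 0.30), both without overlap. Npas2 and Nr1d1 had large differences, 2.05 and -1.32, but overlapped, and Per2 differed by -0.01. In all, 4 of 14 core clock genes had all vehicle arrays above and 2 all below, and 2 and 6 of 13 output genes, against 14.3% and 11.1% of all features, with 0 past limma. Bhlhe41 and Bhlhe40, repressors of the loop, differed by -0.66 and -0.80 and Wee1, a clock-driven kinase of the cell cycle, by -0.47. Whether the groups were collected at the same time of day is not in the labels.

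**Figure D5:**
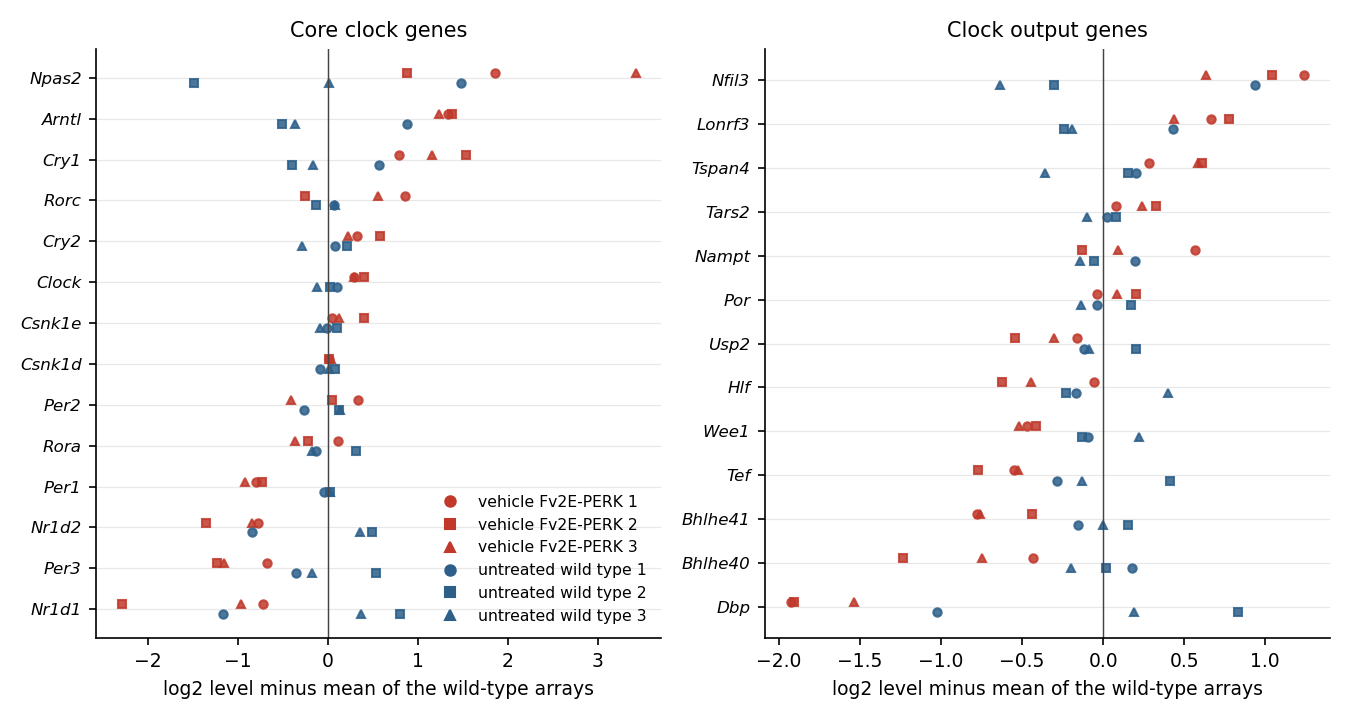
Log2 level of 14 core clock genes (left) and 13 clock output genes (right) minus the mean of the wild-type arrays, 1 symbol per array, vehicle Fv2E-PERK in red and untreated wild type in blue. Per1, Per3 and Dbp lie lower on all vehicle arrays and Arntl and Cry1 higher, and wild type 1 is the wild-type array nearest to the vehicle group for Arntl, Cry1 and Dbp.

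Of 12 white adipocyte markers 5 were higher and 7 lower, with a median of -0.10. On all vehicle arrays 3 lay below (11.1% of all features) and 0 above (14.3%), with 0 past limma. Without wild type 3 the median was -0.21 with 6 below, against 16.5% of all features, and without both vehicle 3 and wild type 3 it was -0.22 with 7 below, against 22.7%. Fabp4, the adipocyte fatty acid-binding protein, read 9.65, 9.64 and 9.60 on vehicle 1 to 3 and 9.97, 9.86 and 9.88 on wild type 1 to 3, a difference of -0.27 (SE 0.10). Car3 and Cfd, a carbonic anhydrase and the complement factor adipsin, differed by -0.31 and -0.28. Under the alternatives Fabp4 ran from -0.36 to 0.02 and Cfd from -0.37 to 0. Lep and Adipoq went the other way, by 0.31 and 0.10, with overlap. Of 9 tested brown adipocyte markers 4 were higher and 5 lower, with a median of -0.00. All vehicle arrays lay above for 2 and below for 1, against 14.3% and 11.1% of all features, with 0 past limma. Cox7a1 and Cpt1b were among the lower ones, at -0.29 with overlap and -0.25 without. The largest difference of the list was that of Cidea, a lipid droplet protein abundant in brown fat. It read 2.62, 3.04 and 3.10 against 2.19, 1.49 and 1.94, a difference of 1.04 (SE 0.22, limma adjusted p = 0.193).

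Lipid droplet and lipolysis genes had 15 of 19 positive differences, 4 with all vehicle arrays above (14.3% of all features) and 1 below (11.1%), 0 past limma and a median of 0.25. The median was 0.13 without wild type 3, and 7 genes lay above without wild type 2, against 21.1% of all features. Adrb1, the beta-1 adrenergic receptor, read 1.09, 0.52 and -0.45 on vehicle 1 to 3 and -0.87, -1.11 and -1.78 on wild type 1 to 3, a difference of 1.64 (SE 0.43). Fatty acid synthesis, fatty acid oxidation, the respiratory chain and citrate cycle, glycolysis and cholesterol synthesis had medians of -0.00, 0.07, 0.05, -0.05 and -0.04, with 0 past limma. Mlxipl, the carbohydrate-responsive factor ChREBP, differed by 0.66 and Cpt1a, which admits fatty acids to mitochondria, by -0.33, each without overlap.

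Genes with the smallest p-values among the lower ones had varied roles. Ppp1r3c, which targets protein phosphatase 1 to glycogen, read 1.96, 2.05 and 2.17 on vehicle 1 to 3 and 3.15, 2.84 and 3.29 on wild type 1 to 3, a difference of -1.04 (SE 0.15, limma adjusted p = 0.132). Slc8a3, a sodium-calcium exchanger, read 1.76, 1.79 and 1.88 against 2.87, 3.08 and 2.68, a difference of -1.07 (SE 0.13). Anp32a, a nuclear phosphoprotein, differed by -1.29, but its second probe by 0.28. Mpp2, a membrane scaffold, differed by -1.19 and Gmpr, which returns GMP to IMP, by -0.72. None of these 5 passed limma, with adjusted p from 0.119 to 0.132. Among the higher ones, Padi3, a peptidylarginine deiminase, was not above background in wild type. With the scaling and background correction used, it was at least 1.83-fold higher (limma adjusted p = 0.0891). Under the alternatives its difference ran from 0.24 to 1.78 log2 units.

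In other lists single arrays stood apart. Liver markers were positive in 13 of 13 cases, with a median of 2.26, but none had non-overlapping groups, and within slide 1 the median was 0.23. Without vehicle 1 or without wild type 1, 12 and 9 of them did not overlap, against 26.2% and 19.8% of all features. Smooth muscle and pericyte markers had a median of -0.63, 9 of 12 lower, with 1 below on all vehicle arrays (11.1% of all features) and wild type 3 highest, and without wild type 3 the median was -0.07. Epididymal and epithelial lists, with 4 and 7 tested members and medians of -1.44 and -1.18, were also highest on wild type 3, without which they were -1.31 and -0.03. Of 25 Hox and other positional genes, 2 had all vehicle arrays above (14.3% of all features) and 6 all below (11.1%), or 11 below without wild type 3, against 16.5%. Those below included Hoxa9, at -2.42, -2.03 and -1.92 against -1.37, -1.56 and -1.35 (difference -0.70, SE 0.16), and Hoxa10 and Hoxd10, which were also highest on wild type 3. The part of other tissue in the Hox values was not tested. Endothelial, fibroblast and mesothelial markers had medians of 0.19, 0.17 and 0.05.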

How the data were processed

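Cy3-labelled total RNA was measured on 1-colour Agilent arrays (design 028005). The authors' files give each spot's processed signal, an intensity which per the file headers came from Feature Extraction 10.7.1.1 after background correction within the array, with probes placed on mm9. The authors' deposited value table, an alternative here, holds the same intensity within 0.1% for 98.6% to 99.1% of values on the 6 arrays, with blanks and no scaling found. Its column medians are 97.5, 83.8 and 105 for vehicle 1 to 3 and 89.7, 94.2 and 88.1 for wild type 1 to 3.

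Outlier spots were dropped (267 missing values on the 6 arrays), spots of a probe averaged, and log2 of the signal taken minus the 75th percentile of each array. Of 55681 probes, 26050 matched 1 RefSeq gene and 29631 none. Probes well above background on all 3 arrays of a group were kept, 31359 in all, with the brightest per gene. The fit (limma 3.58.1, R 4.3.3, lmFit and eBayes) was tested on simulated data. Genes were named by smallest p overall (6 in each direction) and within 46 lists (4 each); other list members in the text, such as S100a8, Trem2, Canx, P4hb, Tnf, Gbp2 and Ddit3, were chosen after their values were seen. Members, lists and the naming rule were chosen with earlier results of these data known. Alternatives changed scaling, background correction, source of values, filter, probe choice, arrays fitted, prior, slide, replicate block and arrays left out. Some members of the lists are counted but not reported here by name.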

Additional observations from a re-analysis of the deposited data

Results flagged for a closer look

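Gprc5b was high in data outside the comparison. On the 7 transgenic arrays of white fat with AP20187 and of brown fat, its lowest log2 level was 4.04, above the highest level of the untreated wild-type arrays, 3.16. The groups of 3 arrays were too small to search all features for single arrays far from the others. Arrays that stood apart for marker lists are given above.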

How the results depend on the processing

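The count of features past limma's threshold was 3 (1 higher, 2 lower) with the percentile over detected probes, quantile scaling, the authors' value table and slide as a random block, the same 3 features each time. With normexp and quantile scaling it was 3, of which 2 were higher and 1 lower. With the stricter filter it was 2 (1 higher, 1 lower), and with the mean of a gene's probes 3, with Knop1 in place of Gprc5b. A trended prior gave 10 (6 higher, 4 lower), among them Oas1a, S100a9 and Per1, and slide as a fixed block 297 (52 higher, 245 lower), resting on vehicle 1 alone. No feature passed limma without a filter on dim probes, with all 13 arrays in 1 model, or without both vehicle 3 and wild type 3, an alternative chosen after seeing the data, where 4692, 1681 and 2517 features had an unadjusted p under 0.05. Leaving out 1 array gave 0 to 13 features, 0 to 5 higher and 0 to 8 lower: 13 without vehicle 1, 1 without vehicle 3 (Ces1g, not among the 3) or wild type 1, and 0 without vehicle 2, wild type 2 or wild type 3, where 2830, 3210 and 3075 had an unadjusted p under 0.05. With the percentile over detected probes, 1584 features were higher and 3240 lower at an unadjusted p under 0.05, against 2517 and 1918. The cause of these changes was not tested. The replicate number as a block, over arrays numbered 1 and 2, gave 0 (1842 at an unadjusted p under 0.05), 0 higher and 0 lower. Deviations of the arrays numbered 1 and of those numbered 2 correlated at -0.19 and -0.10. Those of arrays with different numbers correlated between -0.09 and 0.23. With 3 arrays a group such values cannot show or exclude pairs, and the labels say nothing of pairs. The 3 features kept their direction wherever they were measured. List medians near 0 changed sign, that of the integrated stress response regulators between -0.03 and 0.16. The number of arrays limits the precision, and dim probes are measured only as bounds.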
